A study of Chelidonium majus with 4 samples.

Results

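The morphinan enzymes *SalR* (a reductase of salutaridine), *SalAT* (an acetyltransferase of salutaridinol), *CODM* (a demethylase of codeine) and *COR* (a reductase of codeinone) were represented by 7 contigs, out of 232701 in the BinPacker assembly of the greater celandine, *Chelidonium majus*. The 7 were taken by identifier, because the study labels them with these enzyme names in its drawing of the alkaloid pathway. No limit on an expression value was used, but earlier results of these data were known when the choice was made. Whether the study picked them for a difference between tissues is not stated. However, every contig that the drawing labels differed between root and leaf at the study's own limits, in a test given below. They are 1 contig of *SalR* (TR237321|c105137_g1_i1), 2 of *SalAT* (TR153411|c65282_g1_i1 and TR225251|c101877_g1_i1), 2 of *CODM* (TR74621|c197117_g1_i1 and TR135703|c44992_g1_i1) and 2 of *COR* (TR8121|c206609_g1_i1 and TR76391|c199636_g1_i1). The deposited table pairs no contig with a gene name or a sequence, so the enzyme names rest on the study's labels and were not checked here. RNA was sequenced from root (libraries root 2 and root 4) and leaf (libraries leaf 3 and leaf 4) of greenhouse plants of a single accession, and the names follow the submitters' numbering. The study calls the 2 libraries of a tissue biological replicates without tying a library to a plant; p-values here reflect only how far these libraries vary, which may be technical. The tissue labels were not checked against marker genes, since no contig could be named.

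The 4 enzymes are known from the opium poppy, *Papaver somniferum*, where they make the morphinan alkaloids. There SalR reduces salutaridine to salutaridinol, and SalAT acetylates salutaridinol to an ester that closes to thebaine, which are the early steps. CODM removes the O-methyl group of codeine to give morphine, and COR reduces codeinone to codeine and morphinone to morphine, which are the late steps. By protein family, SalR is a short-chain dehydrogenase/reductase, SalAT a BAHD acyltransferase, CODM a 2-oxoglutarate-dependent dioxygenase and COR an aldo-keto reductase. All 4 are large families in plants, and a contig that resembles such an enzyme need not have its activity.

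Library totals ranged from 15281682 to 19781065 estimated counts, so that 1 count stood for 0.0506 to 0.0654 CPM (counts per 1000000 counts of a library). Levels are given as CPM after TMM scaling, called normalized CPM below, whose factor was 0.729 for root 2, 1.23 for root 4, 1.03 for leaf 3 and 1.09 for leaf 4. These values are not divided by contig length, which was not used here, so levels were compared between libraries and not between contigs. Where a contig is called abundant or scarce below, its counts are meant, which also depend on its length. Over all 47385 contigs tested, the median absolute log2 difference between replicate libraries was 0.46 in root and 0.22 in leaf, with 0.5 added to each normalized CPM.

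The *SalR*, *SalAT* and *CODM* contigs were higher in root and the *COR* contigs were higher in leaf. All 7 passed an FDR of 0.05 with at least a 4-fold difference in edgeR's quasi-likelihood test, 5 of them higher in root and 2 higher in leaf. By the same rule 24.4% of all tested contigs were called, 10.6% on the root side and 13.8% on the leaf side. With 1 library left out and the filter reapplied, not all 7 contigs were still tested. These fits kept 3 without root 2 or root 4, and 6 without leaf 3 or leaf 4. No fitted direction turned. The calls of TR135703 of *CODM* and TR8121 of *COR* did not hold in every such fit, as given below. At the study's FDR of 0.001 with the same fold limit the test called 0 of the 7, against 1.90% of all tested contigs (0.443% on the root side and 1.45% on the leaf side), with all 7 at an unadjusted p under 0.05. The FDR values of the 7 lay between 0.00105 and 0.00925, while the lowest of any tested contig was 0.000879. At an FDR of 0.001 edgeR's exact test called all 7 (9.91% of all tested contigs passed it on the root side and 12.8% on the leaf side), DESeq2 called 7 (19.1% of all tested contigs) and limma-voom called 2 (5.28%). The study ran edgeR on these libraries at these limits. If its labels came from those calls, these counts were largely fixed beforehand and are no support for a difference. Where a contig is called higher or lower in a tissue below, the FDR of 0.05 and the 4-fold limit of the quasi-likelihood test are meant.

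Both libraries of the higher tissue lay above both of the other for all 7 contigs, 5 with root above leaf and 2 with leaf above root. Over all tested contigs 36.5% had both root libraries above both leaf libraries and 36.1% the reverse. A contig entered the test with over 1 CPM in at least 2 libraries. Of the 7, 4 met this through root alone and 1 through leaf alone, and such contigs had to differ between the tissues to be tested, so the full count of 7 is no support for a difference. The other 2, TR74621 of *CODM* and TR8121 of *COR*, were over 1 CPM in all 4 libraries. The median log2 fold change (root minus leaf throughout) was 3.88 over the 7 contigs and 0.01 over all tested contigs. The 3.88 is the value of TR153411 of *SalAT*, which met the filter through root alone. As the 7 hold both directions and come from the study's labels, this median only describes the list. In whole tissue, a smaller share of cells of a type and less RNA per cell cannot be told apart.

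**Figure D1:**
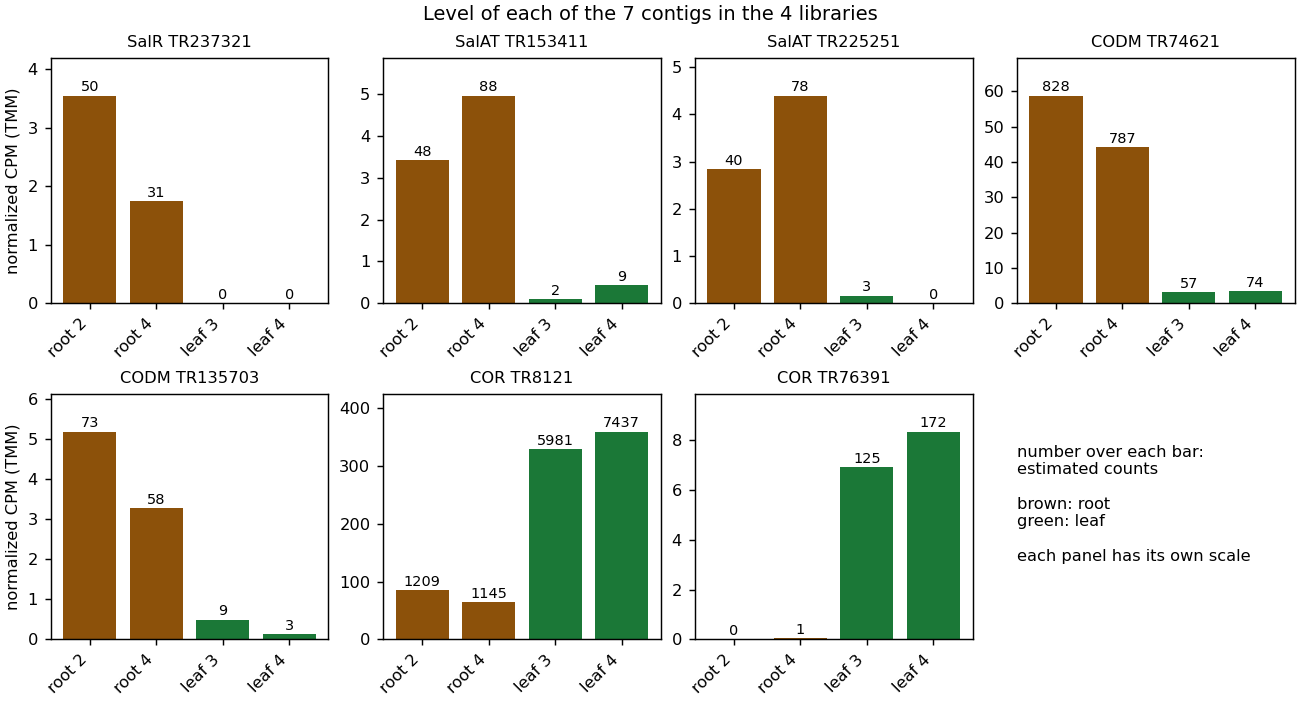
Normalized CPM (vertical axis, a separate linear scale in each panel) of the 7 contigs in root 2, root 4 (brown), leaf 3 and leaf 4 (green), with the estimated counts printed over the bars. *SalR*, *SalAT* and *CODM* stand high in both root libraries and *COR* in both leaf libraries; TR76391 of *COR* has 0 and 1 counts in root against 125 and 172 in leaf.

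*SalR*, the salutaridine reductase, was detected in root alone. TR237321 had 50 counts in root 2 and 31 in root 4, against 0 in leaf 3 and 0 in leaf 4. This is 3.55 and 1.75 normalized CPM in the root libraries, so the level in root 2 was about 1 log2 unit above that in root 4 (1.02). A count of 0 in both leaf libraries allows a leaf level of up to 0.0774 normalized CPM, taking 3 counts over both libraries. Set against that limit, the measured root level was 32.9-fold higher, with counting error in root left out. The fitted log2 fold change of 8.54 (standard error 1.16, FDR 0.00695 by the quasi-likelihood test) rests on the prior count of edgeR and is not a bound. Limits and intervals of this kind cover counting error only.

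The 2 contigs of *SalAT*, the acetyltransferase of the next step, shared the tissue of *SalR* but not its order of root libraries. TR153411 reached 3.41 normalized CPM in root 2 and 4.96 in root 4, against 0.110 in leaf 3 and 0.436 in leaf 4, from 48, 88, 2 and 9 counts. Its log2 fold change was 3.88 (standard error 0.66, FDR 0.00829 by the quasi-likelihood test). The level of TR225251 was 2.84 and 4.40 normalized CPM in root 2 and root 4, against 0.166 in leaf 3 and 0 in leaf 4. With 118 root counts and 3 leaf counts, its root to leaf ratio was 47.9 (95% interval 16.0 to 236, by the Clopper-Pearson method on the split of counts). Both contigs were higher in root 4 than in root 2, whereas *SalR* was higher in root 2. Without TMM the log2 ratio of root 2 to root 4 for *SalR* was only 0.32.

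Summed to 1 row, the *SalAT* contigs had 88 and 166 counts in root 2 and root 4, against 5 and 9 in leaf 3 and leaf 4. The summed level was 7.80 ± 2.19 normalized CPM in root, against 0.356 ± 0.113 in leaf (mean ± SD, n = 2 per tissue). Its log2 fold change was 4.42, with a standard error of 0.47 and an FDR of 0.00213 by edgeR's quasi-likelihood test. The few leaf counts set the precision of both contigs. Without leaf 3 the log2 fold change of TR153411 was 3.06 and that of TR225251 was 8.92, and without leaf 4 they were 5.02 and 4.25. The 8.92 rests on the prior count of edgeR, since TR225251 has 0 counts in leaf 4.

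*CODM*, the demethylase of the last step to morphine, had 1 abundant and 1 scarce contig, both higher in root. TR74621 reached 58.8 normalized CPM in root 2 and 44.4 in root 4, against 3.15 in leaf 3 and 3.58 in leaf 4. These levels came from 828 and 787 root counts, against 57 and 74 leaf counts. The log2 fold change was 3.93 (standard error 0.30), and its FDR of 0.00105 by the quasi-likelihood test was the lowest of the 7 contigs. Of all tested contigs, 2.09% had an FDR as low or lower. TR135703 had levels of 5.19 and 3.27 normalized CPM in root 2 and root 4, against 0.497 and 0.145 in leaf 3 and leaf 4. Its log2 fold change of 3.71 had a standard error of 0.66 and an FDR of 0.00925 by the same test. With 9 and 3 counts in the leaf libraries it rests on little leaf signal. Without leaf 4 and with the filter reapplied, its FDR was 0.0568 at a log2 fold change of 2.92, which is no longer called, whereas with the tested contigs kept the FDR was 0.0302 at 3.07.

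Set against TR74621 within each library, TR135703 did not separate the tissues. It had 8.82 counts per 100 counts of TR74621 in root 2 (95% interval 6.84 to 11.2) and 7.37 in root 4 (5.54 to 9.63). In leaf it had 15.8 per 100 in leaf 3 (6.87 to 32.1) and 4.05 in leaf 4 (0.817 to 12.3). The root and leaf ratios overlapped, and a difference between tissues in this ratio was not detectable at this depth. Both contigs summed to 55.8 ± 11.6 normalized CPM in root, against 3.69 ± 0.0577 in leaf (mean ± SD, n = 2 per tissue).

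*COR*, the reductase of the late steps, was the enzyme of the 4 whose contigs were higher in leaf, and its abundant contig was well represented in root too. TR8121 reached 85.9 normalized CPM in root 2 and 64.5 in root 4, against 330 in leaf 3 and 360 in leaf 4. With 1209 and 1145 root counts, against 5981 and 7437 leaf counts, it had the largest count of the 7 contigs in all 4 libraries. Its log2 fold change of -2.20 (standard error 0.34, FDR 0.00610 by the quasi-likelihood test) was a 4.59-fold higher level in leaf, near the limit of 4-fold. The call depended on single libraries. Without leaf 4 the FDR was 0.0546 at a log2 fold change of -2.28 with the filter reapplied, and 0.0549 with the tested contigs kept. Without root 4 the log2 fold change was -1.92 with the filter reapplied, under the fold limit, and -2.01 with the tested contigs kept, just past it. The sum of the *COR* contigs had an FDR of 0.0526 without leaf 4, and a log2 fold change without root 4 of -1.95 with the filter reapplied and -2.04 with the tested rows kept.

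TR76391, the other *COR* contig, had 0 counts in root 2 and 1 in root 4, against 125 in leaf 3 and 172 in leaf 4. These are 6.90 and 8.32 normalized CPM in the leaf libraries, and the single root count is 0.0564. The leaf to root ratio was 244, with a 95% counting interval from 43.4 to 9659 (log2 fold change -7.64, FDR 0.00139 by edgeR's quasi-likelihood test). The 2 *COR* contigs therefore did not share a ratio between tissues. TR76391 had 0 and 0.0873 counts per 100 counts of TR8121 in root 2 and root 4 (upper 95% limits 0.306 and 0.488), against 2.09 in leaf 3 (1.74 to 2.50) and 2.31 in leaf 4 (1.98 to 2.69). The root intervals lay below the leaf intervals.

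**Figure D2:**
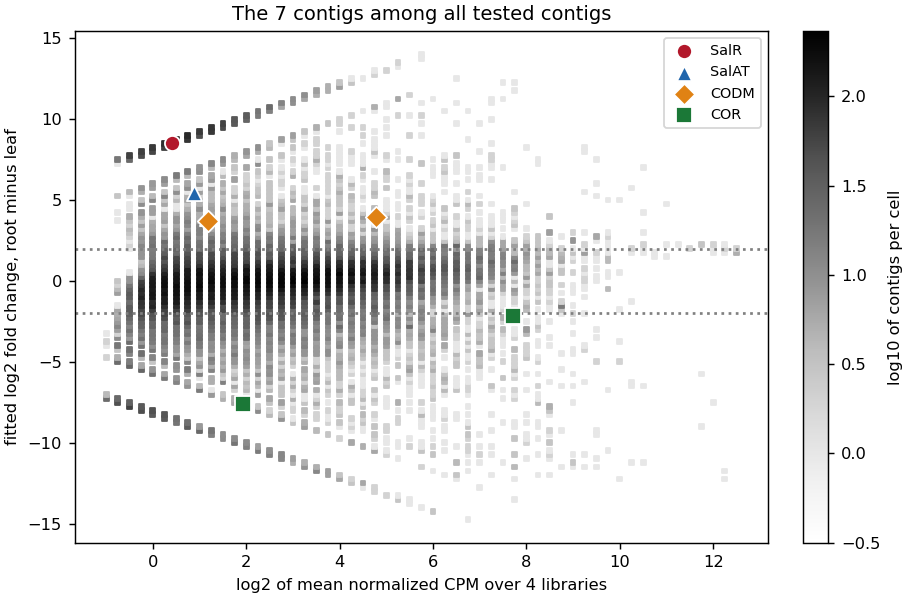
Fitted log2 fold change, root minus leaf (vertical axis), against the log2 of the mean normalized CPM over 4 libraries (horizontal axis) for the 47385 tested contigs, in cells shaded by the number of contigs, with the 7 contigs as coloured symbols and the 4-fold limits as dotted lines. TR8121 of *COR*, at -2.20, lies just beyond the lower limit, and *SalR*, at 8.54, lies in the band of contigs with 0 counts in leaf.

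Contigs of the same assembly component, that is contigs built from connected reads, were taken to be those whose identifiers share their leading digits and run on in their final digits. The sources used here do not define this numbering, so the components below are an inference from the identifiers. RSEM, the program that estimated the counts, divides reads among contigs of similar sequence, and a labelled contig may hold only part of the reads of its component. By this numbering the table has 167165 components, and 5 of the 7 contigs, *SalR*, both *SalAT*, TR74621 of *CODM* and TR8121 of *COR*, were alone in theirs. The scarce contigs of *CODM* and *COR* shared a component with 3 further contigs, which carry no enzyme label in the study.

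TR135703 of *CODM* had TR135701|c44990_g1_i1 and TR135702|c44991_g1_i1 beside it. TR135701 had 32 counts in root 2 and 119 in root 4, against 32 in leaf 3 and 30 in leaf 4. TR135702 had 22 and 93 counts in root 2 and root 4, against 37 and 27 in leaf 3 and leaf 4. Both had the greater level in root 4, with 2.27 and 1.56 normalized CPM in root 2 and 6.71 and 5.24 in root 4. TR135703 had 5.19 normalized CPM in root 2 and 3.27 in root 4, but without TMM this order was lost, with a log2 ratio of root 2 to root 4 of -0.04. With log2 fold changes of 1.49 ± 0.59 (FDR 0.102) and 1.03 ± 0.65 (FDR 0.268, each ± its standard error), neither contig passed the quasi-likelihood test.

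The share of the component's counts that fell on TR135703 was 57.5% in root 2 and 21.5% in root 4, against 11.5% in leaf 3 and 5% in leaf 4. Summed, the component had 127 and 270 counts in root 2 and root 4, against 78 and 60 in leaf 3 and leaf 4. Its log2 fold change was 1.69 (standard error 0.46, FDR 0.0356 by the quasi-likelihood test over components), under the 4-fold limit, where TR135703 alone gave 3.71.

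TR76391 of *COR* had TR76392|c199637_g1_i1 beside it. This contig had 58 counts in root 2 and 0 in root 4, against 51 in leaf 3 and 72 in leaf 4. It was thus at 4.12 normalized CPM in root 2, above both leaf libraries (2.82 and 3.48), and undetected in root 4. Its log2 fold change of -0.64 (standard error 1.38, FDR 0.747 by the quasi-likelihood test) was far from the threshold. TR76391 took 71.0% and 70.5% of the component's counts in leaf 3 and leaf 4, whereas in root 2 all 58 counts fell on TR76392. The component as a whole had 58 and 1 counts in root 2 and root 4, against 176 and 244 in leaf 3 and leaf 4. The log2 fold change of this sum was -2.45, with a standard error of 1.34 and an FDR of 0.209 by the same test. The leaf preference of the labelled contig was therefore not called for its component.

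Counted per component, 5 of the 7 were called, 4 higher in root (*SalR*, both *SalAT* and TR74621) and 1 higher in leaf (TR8121). Of all 21346 components tested, 16.3% were called on the root side and 12.4% on the leaf side. Both members whose component holds further contigs, TR135703 and TR76391, lost their call on summing. Of all 8980 such contigs called at the same limits, 17.6% belonged to a component that was not called in the same direction. With 2 members, their share cannot be compared with this.

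**Figure D3:**
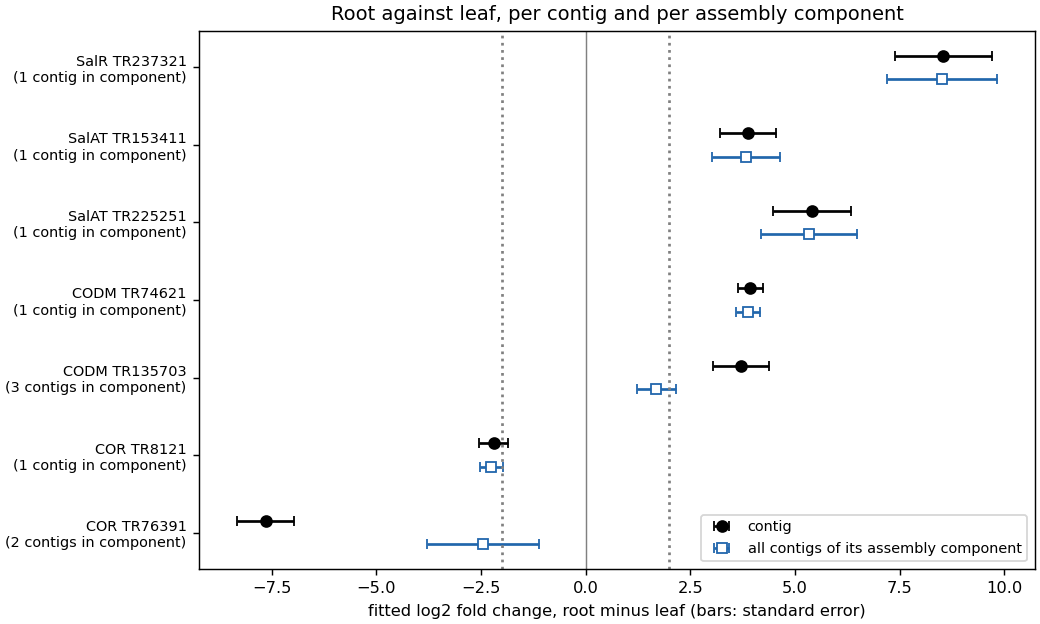
Fitted log2 fold change, root minus leaf, with its standard error (horizontal axis) for each of the 7 contigs (black circles) and for the summed counts of its assembly component (blue open squares); dotted lines mark the 4-fold limits. For the 5 contigs that are alone the values nearly coincide, and for TR135703 (3.71 against 1.69) and TR76391 (-7.64 against -2.45) the component lies nearer to 0.

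**Figure D4:**
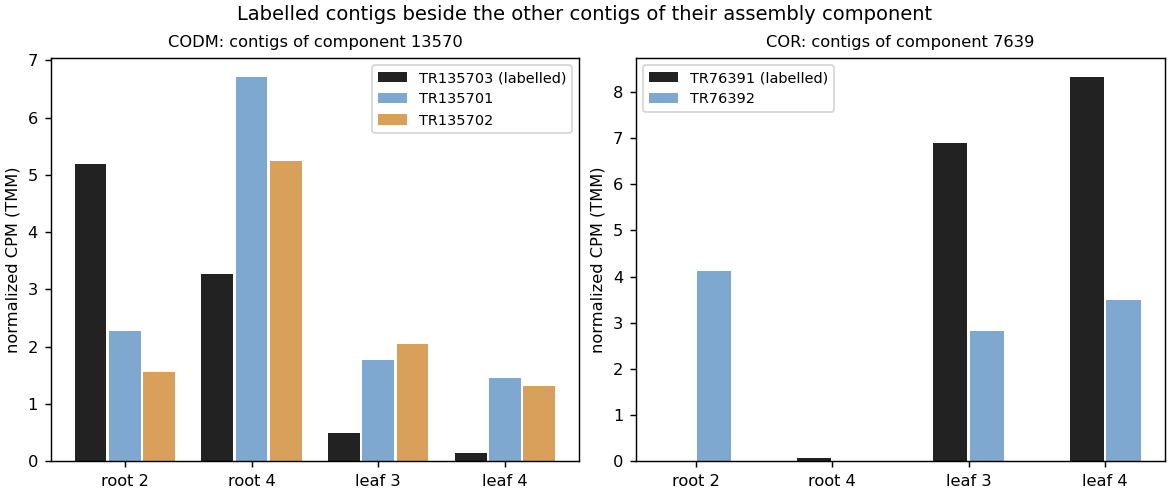
Normalized CPM (vertical axis) in root 2, root 4, leaf 3 and leaf 4 of the labelled *CODM* contig TR135703 (black) with TR135701 and TR135702, and of the labelled *COR* contig TR76391 (black) with TR76392. In root 2 the level of the *COR* component comes from TR76392 alone (4.12), and TR135703 has the most counts of the *CODM* contigs in root 2 (73) and the fewest in root 4 (58).

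Counts of the early and late steps were then set against each other within each library, where the scaling between libraries cancels. Contig length cancels between tissues for a pair of single contigs, but for a sum only as far as its make-up is the same in both, and *SalR* is part of the early sum in root and has 0 counts in leaf. *SalR* and *SalAT* together had 11.4 counts per 100 *COR* counts in root 2 and 17.2 in root 4, against 0.0819 in leaf 3 and 0.118 in leaf 4. The ratio was 139-fold higher in root, from the pooled counts of each tissue. *CODM* had 74.5 and 73.7 counts per 100 *COR* counts in root 2 and root 4, against 1.08 and 1.01 in leaf 3 and leaf 4, and the pooled ratio was 71.1-fold higher in root. For the abundant contigs alone, TR74621 to TR8121, it was 70.3-fold higher in root. The ratio of *CODM* to *COR* was nearly the same in the replicate libraries of each tissue, although the scaled level of each enzyme in root 2 exceeded that in root 4.

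The early enzymes and *CODM* differed less from each other. *SalR* and *SalAT* had 15.3 counts per 100 *CODM* counts in root 2 (95% interval 12.7 to 18.3) and 23.3 in root 4 (19.9 to 27.3), against 7.58 in leaf 3 (2.38 to 18.6) and 11.7 in leaf 4 (5.15 to 23.4). The libraries of the tissues did not overlap in this ratio, but the leaf intervals reach into those of root, so that a difference was not established at this depth. Within root, *SalR* had 56.8 counts per 100 *SalAT* counts in root 2 (39.3 to 81.3) and 18.7 in root 4 (12.3 to 27.5), so the proportion of the early enzymes differed between the root libraries beyond counting error. No p-value is given for these ratios, as an exact two-sided permutation test of 2 against 2 libraries cannot go below 0.333.

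**Figure D5:**
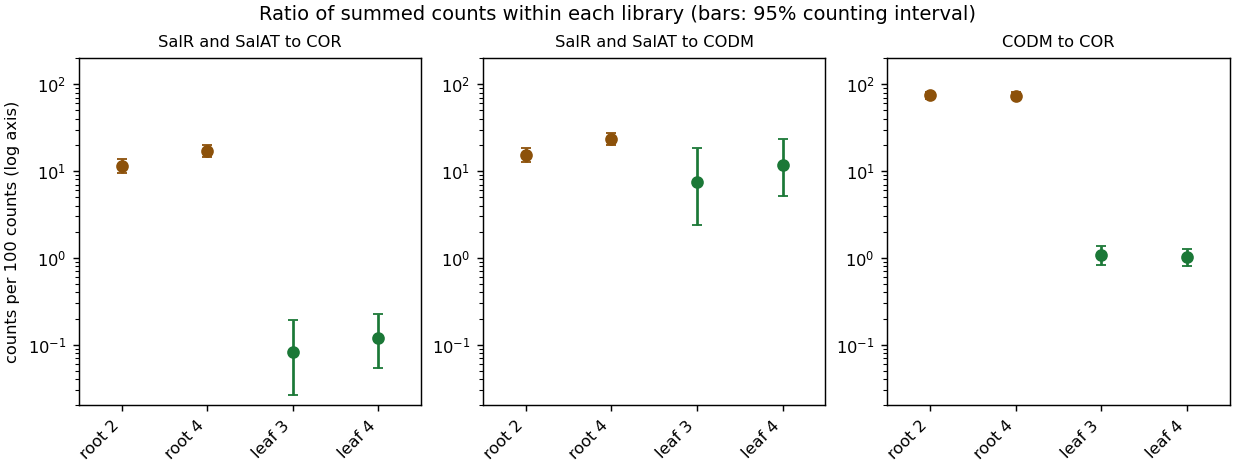
Counts per 100 counts (vertical log axis) within root 2, root 4 (brown), leaf 3 and leaf 4 (green), for *SalR* and *SalAT* to *COR*, *SalR* and *SalAT* to *CODM*, and *CODM* to *COR*, with 95% intervals by the Clopper-Pearson method. Root and leaf lie far apart in both ratios to *COR* (74.5 and 73.7 against 1.08 and 1.01 for *CODM*), and the intervals overlap in the ratio to *CODM*.

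Whether root 2 or root 4 was higher depended on scaling for some contigs, and the order of the tissues did not. Without TMM, TR74621 of *CODM* stood at 41.9 CPM in root 2 and 51.5 in root 4, the reverse of the order after scaling, against 3.18 and 3.84 CPM in leaf 3 and leaf 4. TR8121 of *COR* turned in the same way, with 61.1 and 74.9 CPM in root 2 and root 4, against 334 and 386 in leaf 3 and leaf 4. For *SalAT* root 4 was higher under both scalings, with 2.43 and 5.76 CPM for TR153411 and 2.02 and 5.10 CPM for TR225251 in root 2 and root 4. For *SalR* root 2 was higher under both (2.53 and 2.03 CPM without TMM).

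The study's drawing labels 70 further contigs of 9 enzymes of benzylisoquinoline alkaloid synthesis. By the quasi-likelihood test at an FDR of 0.05 and 4-fold, 58 of the 70 were higher in root and 12 higher in leaf. The 12 were all 9 contigs that the drawing labels as the methylstylopine hydroxylase *MSH*, which acts in sanguinarine synthesis, and 3 of the 7 of the coclaurine N-methyltransferase *CNMT*. *COR* and *MSH* were the 2 of 13 enzymes for which every contig so labelled in the drawing was higher in leaf. For *MSH* the study's text states the reverse, and it gives *TNMT*, an N-methyltransferase of the same pathway, as higher in leaf. The 6 contigs labelled *TNMT* were all higher in root here. Whether the drawing exchanges these 2 labels was not tested. The contigs higher in root included those of the entry enzymes *TYDC* (2 of 2 contigs) and *NCS* (15 of 15), and of *P6H* of the sanguinarine pathway (17 of 17). The median log2 fold change was 3.88 over the 7 contigs and 3.32 over the 70. In edgeR's exact test all 77 labelled contigs passed the study's FDR of 0.001 and 4-fold limit, against 22.7% of all tested contigs. These lists come from the study and may have been drawn from the same libraries for their difference, so their counts describe the lists.

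For each of the 7 contigs the nearest pattern among the 70 was sought, as the smallest Euclidean distance over the 4 libraries between log2(normalized CPM + 0.5) values, each centred on its contig's mean. Both *SalAT* contigs lay nearest to contigs of *SMT*, the scoulerine 9-O-methyltransferase of the berberine pathway. TR225251 was 0.163 from TR43984|c149389_g1_i1 (47 and 85 counts in root 2 and root 4, 6 and 1 in leaf 3 and leaf 4), and TR153411 was 0.487 from TR43983|c149388_g1_i1 (38, 73, 1 and 1 in the same order). *SalR* and TR135703 of *CODM* lay nearest to the same *NCS* contig, TR89754|c218490_g1_i1, at 0.125 and 0.383, with 107 and 79 root counts and 11 and 11 leaf counts. TR74621 of *CODM* was 0.265 from the *P6H* contig TR12327|c30381_g1_i1.

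Both *COR* contigs lay nearest to contigs that the drawing labels *MSH*, a label that was not checked here and whose tissue differs from the study's text. TR76391 was 0.106 from TR24662|c107744_g1_i1, which had 15 and 25 counts in root 2 and root 4, against 450 and 597 in leaf 3 and leaf 4. TR8121 was 0.672 from TR24669|c107751_g1_i1 (45 and 31 in root, 350 and 433 in leaf), a loose match, since 2670 of the 47384 other tested contigs were at least as near. For the other 6 contigs this number ran from 5 to 160, the named contig included. The distance rests on 4 libraries and the added 0.5 draws low levels together, so it describes likeness in these libraries alone.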

How the data were processed

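RNA-seq of root and leaf of *C. majus* (2 libraries each) was used. The deposited table holds estimated counts per BinPacker contig, for which the authors mapped each library with Bowtie and ran RSEM (versions are not given in the sources used here). All values were whole numbers, so rounding changed nothing.

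The test took the 47385 contigs that exceeded 1 CPM in 2 or more libraries, and TMM factors were computed in edgeR 4.0.16 (R 4.3.3). Tissues were tested by the quasi-likelihood method, with p-values adjusted by Benjamini-Hochberg over the whole table. The standard error is taken as the size of the log2 fold change over the root of the F statistic. A contig was called at an FDR under 0.05, or under the study's 0.001, with at least a 4-fold difference. Sums per enzyme and per assembly component (components read from identifier numbering) were fitted likewise. The exact test of edgeR, DESeq2 1.42.0 and limma-voom (limma 3.58.1) served as alternatives, as did other scalings and filters, thinning and leaving out each library. Both edgeR tests were also tried on simulated data.

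The 7 contigs, the lists and the limits were chosen with earlier results of these data known. Besides the 7, the text names the other contigs of their components and the nearest labelled contig of each. No contig sequence was used here. Figures were drawn in Python 3.11.15 with matplotlib 3.10.9.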

Additional observations from a re-analysis of the deposited data

How the results depend on the processing

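No direction of a fold change of the 7 contigs or the enzyme sums turned under the alternative runs made for them. The components were refitted with other tests and scalings alone, where no direction turned, and leaving out a library was not tried for them. At an FDR of 0.05 all 7 contigs stayed called under the other tests, scalings and filters, without the 100 most abundant contigs and after thinning. The share of all tested contigs called went from 10.4% without a filter on low counts to 26.7% with the filter of at least 10 counts. These runs use the same 4 libraries, from which the study may have drawn its labels, so they are no separate support. At an FDR of 0.001, where the quasi-likelihood test called 0, edgeR's exact test called 7 (22.7% of all tested contigs), DESeq2 7 (19.1%), the fit without a filter on low counts 7 (6.01%), limma-voom 2 (5.28%), the filter of at least 10 counts in 2 libraries 1 (1.86%) and thinning to the smallest total 1 (2.61%). Leaving out 1 library in turn leaves a tissue with 1 library, which is then assumed to vary as the other tissue does. Counts of calls are therefore not given for these fits. With the tested contigs kept, the log2 fold change of TR74621 of *CODM* ran from 3.65 to 4.12. That of TR8121 of *COR* ran from -2.49 to -2.01, and it was -1.92 without root 4 with the filter reapplied, under the fold limit. The ratio of *SalR* and *SalAT* to *COR* kept a log2 root to leaf difference of 6.81 to 7.44. Of the ratios between the contigs of 1 enzyme, those of *SalAT* and *CODM* turned: TR225251 to TR153411 ran from -0.79 to 1.70 (no value without leaf 3, where leaf has 0 counts of TR225251) and TR135703 to TR74621 from -0.96 to 1.00 on the log2 scale. The ratio of TR76391 to TR8121 of *COR* kept its direction, from -5.77 to -4.66 (no value without root 4, where root has 0 counts of TR76391). No paired analysis was possible because root and leaf share only the number 4.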
